A study of Homo sapiens with 6 samples.

Results

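The genes described here encode the machinery that copies chromosomal DNA. They are 51 genes chosen by name, for their known role and not by a measured value, from the origin recognition complex to the chromatin assembly factors behind the fork. Earlier results of these data were known when the genes were chosen. All 51 were found among the 62754 rows of the deposited gene tables, and all 51 passed the filter on low values, which asked that 3 of the 6 libraries reach 1 TPM. TPM is a transcript's share of its library per unit of transcript length, scaled to a fixed total of 1000000. The cells were HUDEP-2, an established human erythroid progenitor line, grown in StemSpan SFEM medium with dexamethasone, 1 µg/ml of doxycycline, 50 ng/ml of SCF (stem cell factor) and 3 units/ml of EPO (erythropoietin). One group of 3 libraries came from cells transduced with a lentiviral shRNA against MEN1, the gene of menin, which the labels call a MEN1 knockdown. The other group of 3 came from cells given a non-targeting shRNA, which the labels call WT. Both groups were under puromycin at 2 µg/ml from 24 h after infection for 48 h, and RNA was profiled at 72 h. Poly(A) RNA was sequenced, and the labels number the libraries as biological replicates 1 to 3 of each shRNA. The MEN1 libraries carry 1 hairpin, so loss of MEN1 and other effects of that hairpin cannot be told apart.

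A replication origin is first bound by the origin recognition complex, and CDC6 and CDT1 then load the MCM2-7 ring, a step called licensing that geminin (GMNN) blocks outside G1. At the start of S phase the kinase CDC7 with its activator DBF4, and factors such as TICRR and TOPBP1, help to convert the ring into the active CMG helicase by adding CDC45 and GINS. Polymerase alpha with primase starts each strand, polymerases epsilon and delta extend the leading and lagging strands on the PCNA clamp, and FEN1 and LIG1 join the Okazaki fragments. Many of these genes are textbook targets of E2F transcription factors, and erythroid progenitors divide fast until late in their maturation.

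Promoters show what these genes share beside function. The RefSeq promoter table (GRCh38.p14, 250 bases before and 50 after each start) holds 44 of the 51 genes with 57 starts, and lacks GINS4, MCM4, MCM5, POLD3, RECQL4, RPA2 and RPA3. An E2F motif, searched as TTTCCCGC or TTTGGCGC on both strands, occurred in 19 of the 44 genes (43.2%), against 2.75% of all 27305 genes in the table. Counted by start, it was found in 33.3% of the 57 promoters and in 2.27% of all 35116. It was found in 5 of 10 genes that were higher with the MEN1 shRNA, in 4 of 14 that were lower and in 10 of 20 that did not pass the test. A GC box (GGGCGG, both strands) was found in 79.5% of the 44 genes against 48.3% of all genes, and a CCAAT box in 56.8% against 39.7%. The CHR motif of G2/M genes, as TTTGAA or TTCGAA, was rarer here, at 4.55% against 19.5%. TTTGAA alone was found in 2.27% of the 44 genes and 18.2% of all genes. Base composition was not matched for any of these motifs, so its part in the differences was not tested. Matches of different motifs can overlap, and 3 of the 21 E2F matches shared bases with a GC box match. A match is a string of letters and not a measured binding site. The genes set against the 44 were not filtered by expression. The 44 were chosen for a role whose genes are often E2F targets.

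Stretches around an E2F match are printed for 3 genes that rose and 3 that fell. These genes were picked by direction, and an effect of the motif on direction was not tested. The stretches run 5′ to 3′ on the strand of the gene and end at the latest at the annotated start. The motif or its reverse complement is in capitals. The coordinates are PCNA chr20:5126653-5126702 (minus strand), CDT1 chr16:88803733-88803782 (plus), MCM6 chr2:135876505-135876554 (minus), GMNN chr6:24775312-24775361 (plus), POLA1 chrX:24693760-24693809 (plus) and ORC3 chr6:87590102-87590134 (plus).
PCNA: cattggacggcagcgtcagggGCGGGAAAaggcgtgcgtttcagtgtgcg
CDT1: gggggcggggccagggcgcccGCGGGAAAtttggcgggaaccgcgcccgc
MCM6: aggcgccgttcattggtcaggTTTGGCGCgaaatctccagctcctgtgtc
GMNN: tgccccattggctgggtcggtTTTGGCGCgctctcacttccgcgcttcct
POLA1: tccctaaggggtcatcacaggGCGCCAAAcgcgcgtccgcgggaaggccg
ORC3: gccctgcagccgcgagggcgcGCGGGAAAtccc
The motif in capitals begins 59 bases before the start in PCNA, 35 in CDT1, 90 in MCM6, 80 in GMNN, 137 in POLA1 and 12 in ORC3. MCM6 holds a further TTTGGCGC that begins 152 bases before its start. PCNA and GMNN have 2 starts each in the table, and the match lies before 1 of them: the upstream start in PCNA, and the downstream start in GMNN, which is inside the gene row of the deposited tables. MCM6, which rose, and GMNN, which fell, carry the same 8 letters in the same orientation.

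The libraries matched their labels and were well covered. MEN1 itself stood at 6.29, 6.44 and 6.88 TPM under its shRNA, against 41.2, 39.6 and 37.1 TPM in control libraries. It fell by 2.42 on the log2 scale (SE 0.080, adjusted p 8.5e-06). The ratio of coverage to FPKM gave 5560000000 to 10800000000 aligned bases per library. All 8 erythroid markers were detected, with summed levels of 53278 to 58976 TPM against 31587 to 37159 in the controls, most of it HBB. Of the 8, 6 rose, among them SLC4A1, beside 22.1% of all genes tested. KLF1 and GATA1 did not pass the test (log2 fold changes -0.05 and 0.06). Of 8 lymphoid and myeloid markers, 6 stayed under 1 TPM in every library and MS4A1 was listed at 0 in all. The sum of the 8 was 17.5 to 24.0 TPM against 12.6 to 14.5, most of it CD68. The 2 that were tested moved in opposite directions. CD68 rose (log2 fold change 0.76), and LYZ fell from a control mean of 1.48 TPM to 0.198 TPM (-1.05). Of the stromal and epithelial markers, EPCAM was detected at 121 to 138 TPM against 231 to 245 and fell (log2 fold change -0.86). KRT18 was detected at 3.43 to 6.15 TPM against 2.93 to 4.10 and did not pass the test (0.34). COL1A1 and COL1A2 reached 2.24 and 2.02 TPM in control replicate 2 and were under 1 TPM elsewhere. PDGFRB and PECAM1 stayed under 1 TPM. The part that erythroid maturation has in the values below was not tested, and in bulk RNA fewer cells in S phase and less RNA per cell cannot be told apart.

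As a whole the replication genes stood at overlapping levels in both groups. Their summed TPM was 5560, 5292 and 5371 under the MEN1 shRNA against 5185, 5396 and 5400 in control libraries, a ratio of the means of 1.02. They made up 0.541% ± 0.0138 of all TPM against 0.533% ± 0.0123 (SD, n = 3 each). By limma, 28 of the 51 genes (54.9%) passed an adjusted p of 0.05, against 53.6% of all 14294 genes tested. That is close to the background under this filter, but the background moved with the filter. At a mean TPM of 5 or more, 56.9% of the replication genes and 62.3% of all genes passed. With no filter on low values the shares were 47.1% and 19.4%. Of the 28 genes, 13 were higher with the MEN1 shRNA (25.5%, background 22.1%) and 15 lower (29.4%, background 31.5%). This balance turned with the scaling: 16 were higher and 13 lower under median-of-ratios scaling, 15 and 13 once globin and mitochondrial-genome genes were removed before rescaling TPM, and 16 and 14 under quantile normalization. Over all genes, 3158 were higher and 4499 lower as deposited, so 41.2% of those called were higher. The all-gene counts moved the same way, to 3758 and 3838 (49.5% higher) under median-of-ratios scaling. They were 3558 and 3975 (47.2%) without globin and mitochondrial-genome genes, and 3731 and 3863 (49.1%) under quantile normalization. The 2 groups did not overlap in 33 genes (64.7%, background 61.8%), of which 16 were higher (31.4%, background 25.8%) and 17 lower (33.3%, background 35.9%). These shares too lie near the background.

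The changes were small. The median log2 fold change was -0.05, beside -0.07 for all genes tested, and the median size of a change either way was 0.23 against 0.37. A change of at least 0.5 on the log2 scale that passed the test was seen in 9 genes (17.6%, background 34.5%). GINS1 alone changed at least 2-fold (1.96%, background 11.9%). Levels ran from a mean of 15.9 TPM for TICRR to 603 TPM for PCNA, with a median of 63.8 TPM, above the 15.6 TPM of all genes tested.

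**Figure D1:**
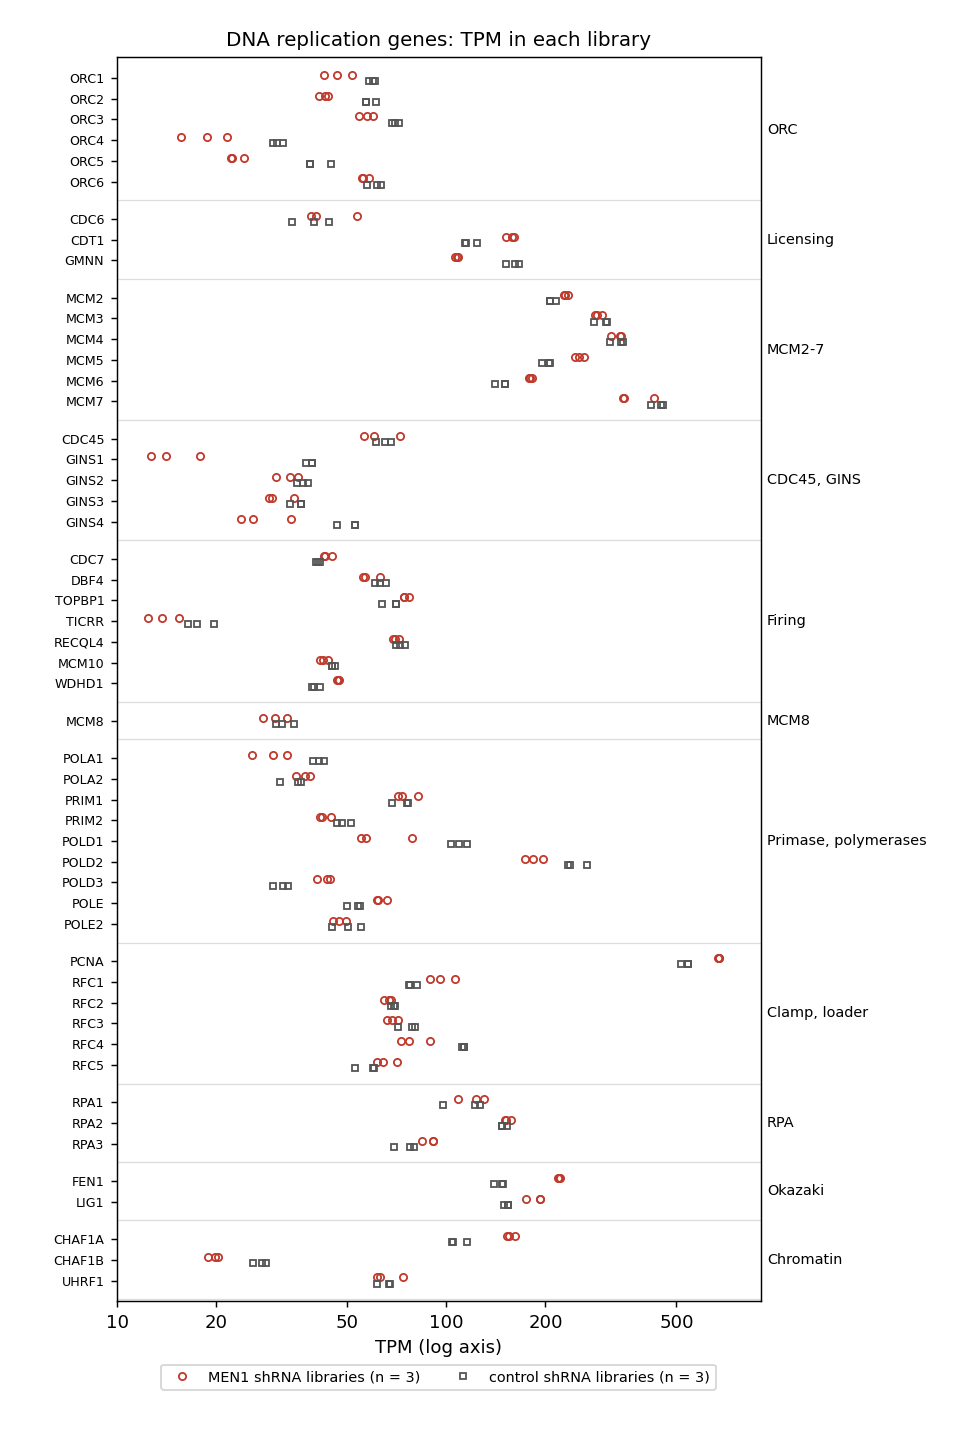
TPM of the 51 DNA replication genes in each of the 6 libraries on a log axis, ordered by role; circles are the 3 MEN1 shRNA libraries and squares the 3 control libraries. PCNA has the highest level in both groups, and GINS1, GINS4, ORC4 and ORC5 show MEN1 shRNA libraries well to the left of the controls.

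Of the 6 subunits of the origin recognition complex, 5 fell with the MEN1 shRNA and ORC6 did not pass the test, beside 31.5% of all genes tested that fell. ORC5 (ENSG00000164815, chromosome 7, 104126341 to 104208047, hg38) stood at 22.4, 22.3 and 24.4 TPM against 38.6, 38.7 and 44.7 TPM in the controls. Every control library lay above every MEN1 shRNA library, and the mean fell by 43.4% (log2 fold change -0.79, SE 0.083, adjusted p 0.00020). ORC4 was at 21.6, 18.8 and 15.6 TPM against 32.0, 30.6 and 29.7 TPM (log2 fold change -0.70, SE 0.11, adjusted p 0.0015). ORC2, ORC1 and ORC3 fell less, with log2 fold changes of -0.45, -0.34 and -0.29.

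ORC3, the most abundant subunit by the mean of all libraries, was at 60.1, 57.3 and 54.2 TPM against 68.3, 69.6 and 71.7 TPM. ORC6, the smallest and most loosely held subunit of the complex, was at 56.5 ± 1.60 against 60.9 ± 3.00 TPM (SD, n = 3 each; log2 fold change -0.10, 95% interval -0.25 to 0.04, adjusted p 0.20). The summed TPM of the 6 genes was 254, 242 and 239 against 312, 317 and 331, a ratio of 0.765. ORC6 therefore made up 23.1% ± 1.31 of that sum against 19.0% ± 0.519, while ORC5 made up 9.41% ± 0.721 against 12.7% ± 0.713. These shares are of RNA and say nothing of protein.

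Among the licensing factors, the loader and its inhibitor moved in opposite directions. CDT1, which brings the MCM2-7 ring to the origin (ENSG00000167513, chromosome 16, 88803789 to 88809258), was at 152, 158 and 160 TPM against 124, 114 and 114 TPM. It rose by a log2 fold change of 0.41 (SE 0.058, adjusted p 0.00074), with no overlap between the groups. GMNN, which holds CDT1 inactive in S and G2 phase (ENSG00000112312, chromosome 6, 24774931 to 24786099), was at 109, 106 and 108 TPM against 151, 162 and 166 TPM. It fell by 0.57 on the log2 scale (SE 0.056, adjusted p 0.00015). The ratio of CDT1 to GMNN TPM was 1.40, 1.49 and 1.49 under the MEN1 shRNA, against 0.818, 0.707 and 0.688 in control libraries. CDT1 was thus the lower of the pair in all controls and the higher in all MEN1 shRNA libraries. CDC6, the ATPase that works with ORC in loading, varied within groups that overlapped, at 44.2 ± 8.18 against 39.2 ± 5.04 TPM, and did not pass the test (log2 fold change 0.16, adjusted p 0.38).

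The MCM2-7 ring, the motor of the helicase, summed to 1712, 1615 and 1644 TPM against 1558, 1673 and 1660 TPM, with overlapping groups. Its subunits did not move together: MCM5, MCM6 and MCM2 rose, and MCM3, MCM4 and MCM7 did not pass the test. MCM5 (ENSG00000100297, chromosome 22, 35400134 to 35425431) was at 245, 254 and 262 TPM against 196, 206 and 205 TPM (log2 fold change 0.32, SE 0.053, adjusted p 0.0015). MCM6 was at 179, 180 and 182 TPM against 140, 151 and 150 TPM (log2 fold change 0.29, adjusted p 0.0026). Both were separated fully between the groups. MCM2 was the weakest of the 3, at 230.4 ± 3.02 against 209.6 ± 4.79 TPM (log2 fold change 0.14, adjusted p 0.047). With any of the 6 libraries left out its adjusted p lay between 0.051 and 0.13, so its call rested on the full set.

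MCM7, the most abundant subunit, was at 426, 344 and 347 TPM against 418, 455 and 448 TPM. MEN1 shRNA replicate 1 lay among the controls and replicates 2 and 3 below them, and the log2 fold change was -0.25 (adjusted p 0.051). Without MEN1 shRNA replicate 1 it was -0.35 with an adjusted p of 0.0027. With all 6 libraries MCM7 passed with array weights (adjusted p 0.011), quantile normalization (0.037) and a mean TPM of 5 or more (0.047). It did not pass under median-of-ratios scaling (0.18) or with no filter on low values (0.15). MCM7 made up 24.9%, 21.3% and 21.1% of the ring's TPM against 26.8%, 27.2% and 27.0%. MCM4 did not pass (log2 fold change -0.0046, 95% interval -0.14 to 0.13), nor did MCM3 (-0.04, -0.18 to 0.09); the sign of both turned with the scaling. MCM8, a relative of the ring subunits that acts mainly in recombination, was at 32.8, 27.7 and 30.1 TPM against 30.5, 31.7 and 34.4 TPM and did not pass the test (log2 fold change -0.09, adjusted p 0.41).

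GINS1, a subunit of the 4-part GINS complex that locks CDC45 onto the ring, had the largest change of the 51 genes. GINS1 (ENSG00000101003, chromosome 20, 25391008 to 25452700) was at 17.9, 14.1 and 12.7 TPM against 39.1, 37.6 and 39.1 TPM in control libraries. All controls lay above all MEN1 shRNA libraries, and 38.6% of the control mean remained (log2 fold change -1.33, SE 0.12, adjusted p 0.00010). GINS4 (ENSG00000147536, chromosome 8, 41529218 to 41545030) was at 33.8, 25.9 and 23.9 TPM against 46.5, 52.9 and 52.9 TPM (log2 fold change -0.86, SE 0.13, adjusted p 0.0010). The other members of this group did not pass the test: log2 fold changes were -0.14 for GINS2, -0.19 for GINS3 and -0.05 for CDC45.

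In the control libraries the 4 GINS transcripts stood at similar levels, from 35.3 ± 1.48 TPM for GINS3 to 50.8 ± 3.68 TPM for GINS4. GINS1 made up 23.9% ± 0.847 of their summed TPM there and 13.9% ± 0.784 with the MEN1 shRNA. GINS2 went from 22.7% ± 1.28 of the sum to 31.1% ± 1.79 and became the most abundant of the 4. The sum itself was 122, 103 and 96.6 TPM against 157, 162 and 165 TPM. CDC45, the most abundant gene of the group, was at 72.2, 60.1 and 56.1 TPM against 61.1, 68.1 and 65.0 TPM, with overlapping groups. Without MEN1 shRNA replicate 1, GINS3 passed the test as well (log2 fold change -0.26, adjusted p 0.019), as it did with array weights (0.032).

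**Figure D2:**
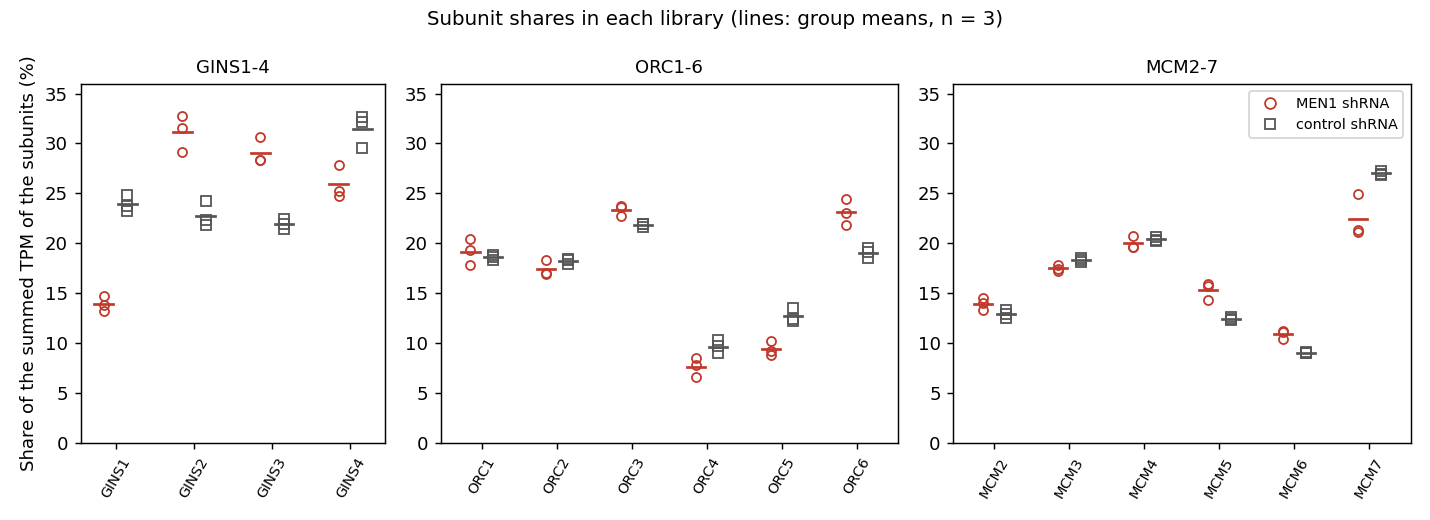
Share (%) of each subunit in the summed TPM of GINS1-4, ORC1-6 and MCM2-7, per library; circles are MEN1 shRNA, squares control, short lines the means of 3 libraries. The GINS1 share is 13.1% to 14.7% with the MEN1 shRNA and 23.2% to 24.8% in the controls, while most MCM subunits differ by under 3 percentage points.

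Of 7 genes that fire origins and assemble forks, WDHD1 rose, TICRR fell and 5 did not pass the test. WDHD1, which links the helicase to polymerase alpha, was at 47.3, 46.9 and 46.7 TPM against 39.0, 41.4 and 39.7 TPM (log2 fold change 0.23, SE 0.058, adjusted p 0.013). TICRR, which recruits TOPBP1 to start firing, was at 15.5, 12.4 and 13.7 TPM against 16.5, 19.7 and 17.5 TPM (log2 fold change -0.35, adjusted p 0.027). TICRR did not pass without MEN1 shRNA replicate 2 or 3 (adjusted p 0.089 and 0.067), without control replicate 2 or 3 (0.093 and 0.060), or when TPM was rescaled, for example by median-of-ratios factors (0.058).

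The kinase CDC7 and its activator DBF4 did not pass, with log2 fold changes of 0.09 (95% interval -0.05 to 0.22) and -0.11 (-0.27 to 0.05). CDC7 passed the test under median-of-ratios scaling (adjusted p 0.039) and quantile normalization (0.046). TOPBP1, the scaffold of the firing step and the most abundant gene of the group, was at 74.3, 77.2 and 74.6 TPM against 63.8, 70.3 and 70.2 TPM (log2 fold change 0.15, adjusted p 0.083). It passed under the other 3 scalings and with FPKM, at adjusted p-values of 0.010 to 0.030. RECQL4 and MCM10 had log2 fold changes of -0.04 and -0.09.

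Polymerase delta, which copies the lagging strand, had subunits that moved apart. POLD1, its catalytic subunit (ENSG00000062822, chromosome 19, 50384204 to 50418018), was at 78.8, 54.9 and 57.0 TPM against 103, 115 and 109 TPM. It fell by 0.79 on the log2 scale (SE 0.13, adjusted p 0.0018), and MEN1 shRNA replicate 1 was the nearest to the controls. POLD2, the most abundant of the polymerase genes, was at 197, 174 and 183 TPM against 267, 238 and 234 TPM (log2 fold change -0.41, SE 0.074, adjusted p 0.0023). POLD3, an accessory subunit that binds PCNA, rose instead, at 43.3, 40.5 and 44.4 TPM against 29.8, 31.8 and 33.0 TPM (log2 fold change 0.43, SE 0.071, adjusted p 0.0016). The ratio of POLD1 to POLD3 TPM was 1.82, 1.36 and 1.28 against 3.46, 3.62 and 3.32. POLD4, the smallest subunit and not among the 51 genes, was at 55.0, 67.0 and 46.8 TPM against 32.9, 20.01 and 25.8 TPM (log2 fold change 1.08, SE 0.19, adjusted p 0.0021).

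POLE, the catalytic subunit of polymerase epsilon on the leading strand, was at 61.8, 62.1 and 66.1 TPM against 49.9, 53.9 and 54.9 TPM. It rose by a log2 fold change of 0.26 (adjusted p 0.012), while its partner POLE2 did not pass (-0.08, adjusted p 0.48). POLA1, the catalytic subunit of polymerase alpha, was at 32.9, 25.7 and 29.7 TPM against 39.3, 42.5 and 41.2 TPM (log2 fold change -0.47, SE 0.097, adjusted p 0.0045). Its partner POLA2 and the primase subunit PRIM1 did not pass (0.10 and 0.04). PRIM2, the large primase subunit, was at 42.6 ± 1.75 against 48.7 ± 2.45 TPM, lower by the test (log2 fold change -0.19, adjusted p 0.047). The PRIM2 call was lost without MEN1 shRNA replicate 2 or 3 (adjusted p 0.12 and 0.13), without control replicate 1, 2 or 3 (0.087, 0.15 and 0.059), and under each rescaling.

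PCNA, the clamp that holds polymerases on DNA (ENSG00000132646, chromosome 20, 5114953 to 5126626), was the most abundant gene of all 51. It was at 674, 671 and 672 TPM against 517, 541 and 540 TPM, a rise of 26.2% with no overlap (log2 fold change 0.33, SE 0.048, adjusted p 0.00082). The clamp loader that opens PCNA split by subunit. RFC1, its large subunit, rose (95.7, 89.2 and 106 TPM against 77.9, 81.4 and 77.1 TPM, log2 fold change 0.29, adjusted p 0.012). RFC4 fell (89.4, 76.9 and 72.8 TPM against 112, 113 and 113 TPM, log2 fold change -0.50, SE 0.081, adjusted p 0.0014). RFC2, RFC3 and RFC5 did not pass (-0.05, -0.16 and 0.18). RFC3 passed without control replicate 1 (adjusted p 0.038) and with array weights (0.041), and RFC5 passed under each of the 3 rescalings (adjusted p 0.030 to 0.034). RFC1 made up 25.7% ± 2.15 of the loader's summed TPM against 19.9% ± 0.318 in the controls, and RFC4 21.1% ± 1.69 against 28.6% ± 0.413.

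Of the 3 subunits of RPA, which coats unwound DNA, RPA3 rose and RPA1 and RPA2 did not pass the test. RPA2, the most abundant, was at 150, 157 and 152 TPM against 147, 147 and 153 TPM (log2 fold change 0.04, 95% interval -0.08 to 0.15). RPA1 varied most, at 109, 123 and 130 TPM against 122, 97.8 and 126 TPM, and its sign turned without control replicate 2 (-0.04). RPA3 was at 90.8, 91.4 and 84.4 TPM against 79.6, 69.3 and 77.8 TPM (log2 fold change 0.23, adjusted p 0.028). RPA3 did not pass without MEN1 shRNA replicate 1 or 2 (adjusted p 0.062 and 0.086) or without control replicate 2 (0.084).

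Both genes that finish Okazaki fragments rose. FEN1, the flap endonuclease (ENSG00000168496, chromosome 11, 61792911 to 61797238), was at 218, 221 and 220 TPM against 139, 148 and 149 TPM. That is the largest rise among the 51 genes, 1.51-fold over the control mean (log2 fold change 0.59, SE 0.052, adjusted p 9.3e-05). LIG1, the ligase that seals the nick, was at 193, 174 and 192 TPM against 149, 154 and 154 TPM (log2 fold change 0.29, SE 0.059, adjusted p 0.0047).

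The FEN1 value carries a limit of annotation. The row of FADS2, a fatty acid desaturase gene on the same strand, overlaps FEN1 over 4259 bases. FADS2 was at 237, 188 and 197 TPM against 308, 328 and 313 TPM, lower with the MEN1 shRNA (log2 fold change -0.61, adjusted p 0.00088). The summed TPM of FEN1 and FADS2, a quantity defined after the values were seen, was 455, 408 and 418 against 447, 476 and 462, with overlapping groups. How reads were divided between the 2 rows was not tested.

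Histone chaperones and UHRF1 act on chromatin behind the fork. CHAF1A, the large subunit of chromatin assembly factor 1 (ENSG00000167670, chromosome 19, 4402640 to 4445018), was at 153, 155 and 162 TPM against 105, 115 and 104 TPM (log2 fold change 0.53, SE 0.062, adjusted p 0.00031). CHAF1B, its partner, fell, at 19.8, 20.2 and 18.9 TPM against 25.8, 27.6 and 28.3 TPM (log2 fold change -0.45, SE 0.073, adjusted p 0.0014). CHAF1A was already the higher of the 2, and its ratio to CHAF1B was 7.69, 7.65 and 8.55 against 4.05, 4.18 and 3.66. UHRF1, which brings DNMT1 to newly copied DNA, did not differ beyond its spread (66.1 ± 6.93 against 65.4 ± 3.15 TPM, adjusted p 0.92).

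CHAF1B shares 757 bases with the same-strand row of MORC3, which was at 113, 122 and 122 TPM against 67.2, 77.5 and 67.2 TPM. Their summed TPM was 133, 142 and 141 against 93.0, 105 and 95.5, so the sum and CHAF1B differ in direction.

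**Figure D3:**
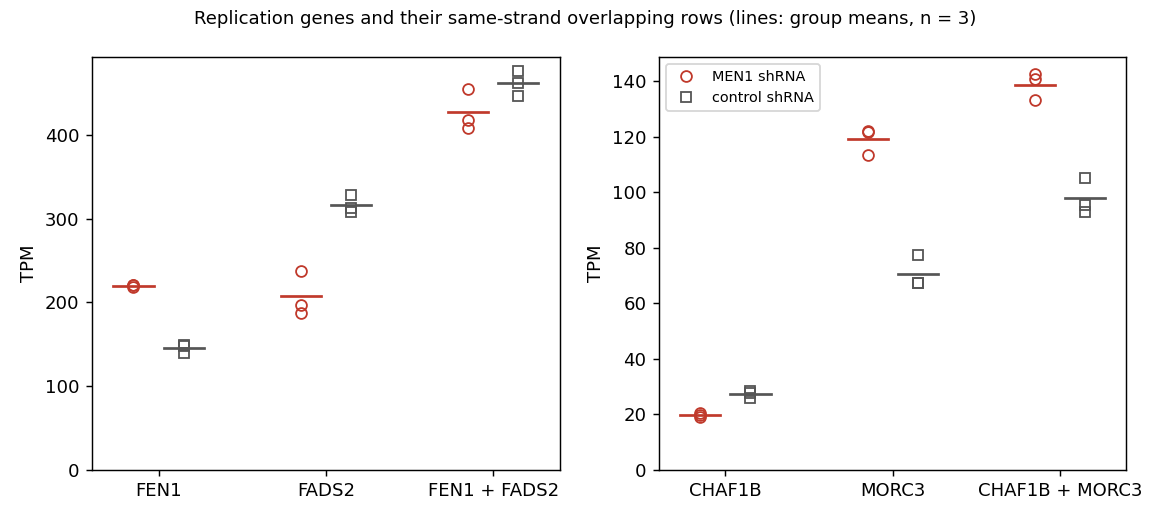
TPM per library of FEN1 and CHAF1B, of the same-strand rows that overlap them (FADS2 and MORC3), and of the sums; circles are MEN1 shRNA, squares control, lines the means of 3 libraries. FEN1 is higher and FADS2 lower with the MEN1 shRNA while their sum overlaps between groups, and CHAF1B is lower while MORC3 and the sum are higher.

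**Figure D4:**
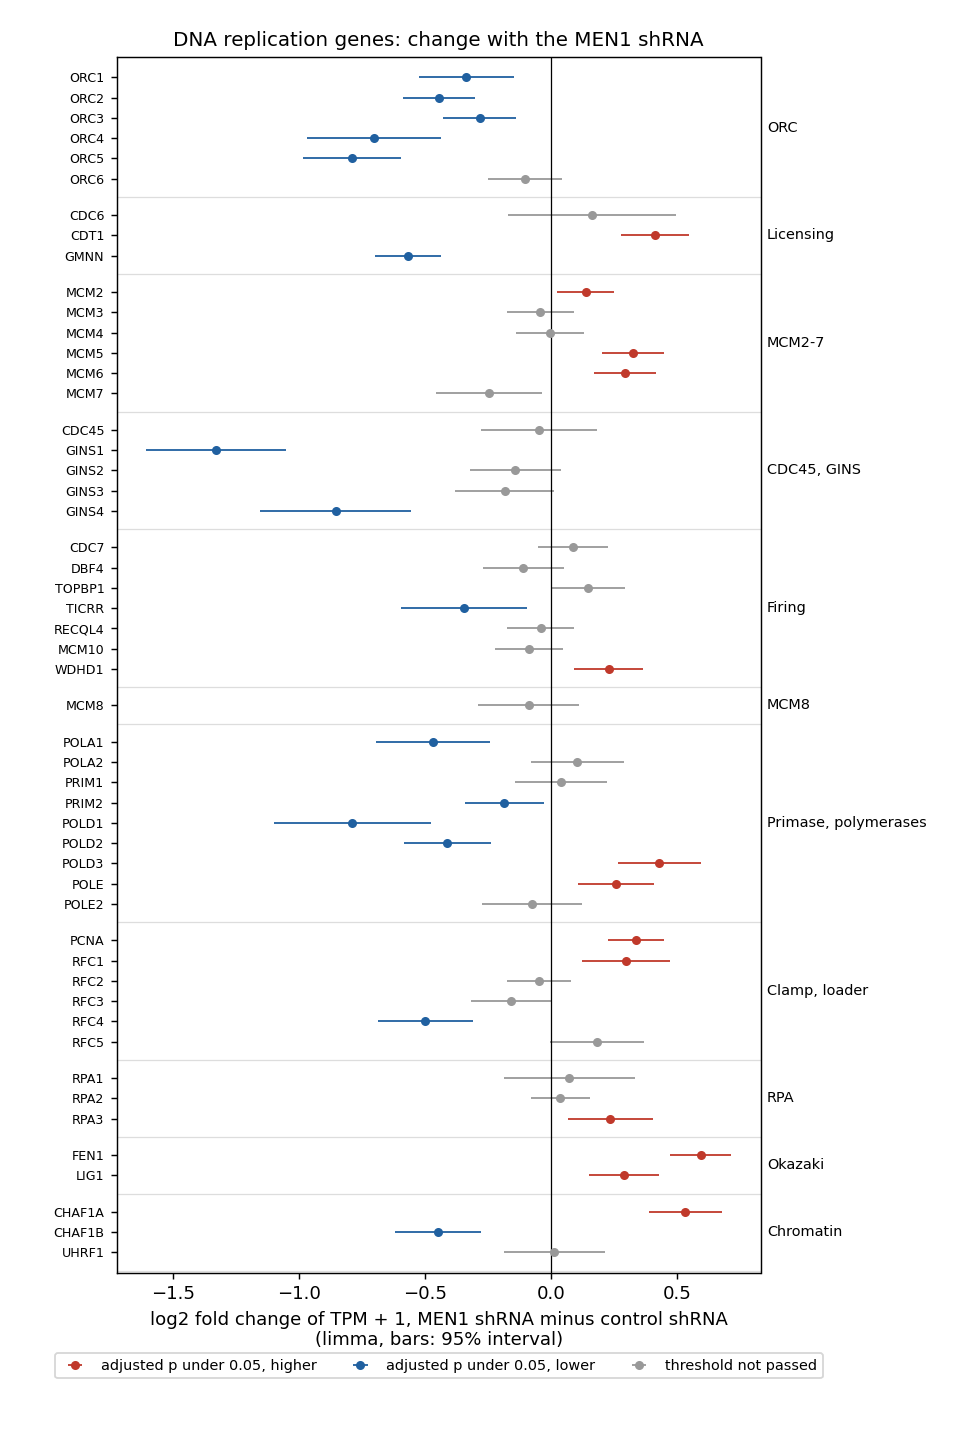
Log2 fold change of TPM + 1 (MEN1 shRNA minus control) of the 51 genes by role, with 95% intervals from limma; red and blue mark genes past an adjusted p of 0.05. Rises reach 0.59 (FEN1), falls reach -1.33 (GINS1), and 5 of 6 ORC subunits lie left of 0 past the threshold.

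MEN1 shRNA replicate 1 lay nearest the controls for most genes that fell. In 12 of the 15 genes that fell it had the highest TPM of its group, and in 7 of the 13 that rose it had the lowest. These counts were not made over all genes, so whether they are particular to the replication genes was not tested. The MEN1 level of replicate 1, 6.29 TPM, was the lowest of the 3. Without replicate 1, 28 of the 51 genes passed (54.9%, background 52.8%), 11 higher and 17 lower.

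Other genes of the replication pathway, 32 in all, also split. Of these, 11 rose, 9 fell and 12 did not pass, with a median log2 fold change of 0.05, beside 22.1% of all genes tested that rose and 31.5% that fell. The largest rises after POLD4 were those of TOP1, the topoisomerase that relaxes DNA ahead of the fork (402 ± 34.4 against 224 ± 28.9 TPM, log2 fold change 0.85), TIMELESS of the fork protection complex (0.58) and the chromatin remodeler HELLS (0.58). The largest falls were those of CHTF8, part of an alternative clamp loader (18.0 ± 3.33 against 28.6 ± 0.879 TPM, log2 fold change -0.66), the MCM-binding protein gene MCMBP (-0.53), the ribonuclease subunit RNASEH2B (-0.50) and LRWD1, an ORC-associated protein (-0.48). Adjusted p ran from 0.00040 (HELLS) to 0.0058 (LRWD1) over these 8.

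Of 8 regulators of S phase entry, 5 rose and 2 fell (background 22.1% and 31.5%). CCNE2, a cyclin that drives S phase entry, was at 66.5 ± 2.81 against 22.6 ± 1.09 TPM (log2 fold change 1.52, adjusted p 1.6e-05). E2F2 was at 48.8 ± 2.41 against 19.1 ± 0.734 TPM (1.31, adjusted p 2.4e-05). CCNE1 and E2F3 fell (-0.53 and -0.44). Of 12 G2/M genes, 6 rose and 0 fell by limma (background 22.1% and 31.5%), led by NUSAP1 (0.88) and CDK1 (0.67).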

How the data were processed

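Poly(A) RNA from 3 MEN1 shRNA and 3 control shRNA libraries was analysed; groups come from the sample titles. STAR 2.7.1a, StringTie 2.0.4, Picard 2.20.4, Trimmomatic and FastQC are named with build hg38, per the submitters' processing notes. The sources used here do not name the annotation or say whether counting used strand. The TPM values deposited by the authors sum to 1000000 per library; FPKM and coverage signal stand in columns of those names beside it, per the file headers. In 1 library, control replicate 2, TPM and coverage (there the unit is other, since the deposited columns hold residues below 0, in 1 and 2 genes) were set to 0 for those genes. Within a library TPM compares genes per length; it is a share, so a rise in globin RNA (9.90% ± 0.630 of TPM against 5.51% ± 0.273) lowers the rest.

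The contrast was fitted on log2(TPM + 1) with limma 3.58.1 in R 4.3.3 (lmFit, eBayes with trend), 2-sided, Benjamini-Hochberg over 14294 genes, threshold 0.05; fold changes are on this scale and understate those of low genes. SE and 95% intervals are from that fit. It was also run on simulated data with normal noise and far fewer changed genes than were called here, so no error rate is taken from that run. The tables used here hold no counts, so no count model or counting interval is given. Depth was the median ratio of coverage to FPKM over genes with 1 transcript in GENCODE v29 (94.9% to 95.4% of them within 0.1%). Tables and figures used Python 3.11.15, pandas 2.3.3, NumPy 2.4.6 and matplotlib 3.10.9.

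The members and lists were chosen with earlier results of these data known. Per-library values are given for the 2 largest rises and falls past the threshold in each role group and its most abundant gene; the other per-library values, FADS2 and MORC3 were chosen after their values were seen. Nothing is known of separate cultures beyond the replicate labels, so p-values measure the spread between these libraries. All 51 genes have the same identifier and an overlapping position in GENCODE v29. Protein sequences were not used here.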

Additional observations from a re-analysis of the deposited data

How the results depend on the processing

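Of the 28 calls among the replication genes, 24 held under every alternative other than the stricter thresholds, and the exceptions were MCM2, TICRR, PRIM2 and RPA3. None of the 28 changed direction. A treat test against 0.5 on the log2 scale left 2 of the genes (3.92%), 0 higher and 2 lower (GINS1 and ORC5). It left 2126 of all genes (14.9%), and calls fewer by its construction. An adjusted p of 0.01 left 21 of the replication genes (41.2%, background 38.7%), 8 higher and 13 lower. The median of the replication genes turned from -0.0497 to 0.0372 under median-of-ratios scaling, to 0.0164 when globin and mitochondrial-genome genes were taken out before rescaling TPM, and to 0.0065 under quantile normalization. The all-gene median moved by 0.0780, 0.0585 and 0.0657 there. Directions that turned all belonged to genes past no threshold. With median-of-ratios scaling they were MCM3 (0.0439), MCM4 (0.0833), CDC45 (0.0372), RECQL4 (0.0438), POLE2 (0.01) and RFC2 (0.0365). With rescaled TPM they were MCM3 (0.0229), MCM4 (0.0623), CDC45 (0.0164), RECQL4 (0.0231) and RFC2 (0.0157). With quantile normalization they were CDC45 (0.0377), RECQL4 (0.0420), MCM8 (0.0061), POLE2 (0.0065) and RFC2 (0.0234). FPKM turned MCM4 (0.0275), and array weights turned PRIM1 (-0.0034) and UHRF1 (-0.0369); the cause was not tested. With 1 library left out, 24 to 28 of the genes passed (47.1% to 54.9%, background 46% to 52.8%), 11 to 12 higher and 13 to 17 lower. The values of genes that turned ran from -0.0242 to 0.0789 for PRIM1, -0.0718 to 0.0613 for UHRF1, -0.0429 to 0.0265 for MCM4, -0.1522 to 0.0261 for CDC45 and -0.0425 to 0.1435 for RPA1. Libraries with the same replicate number did not deviate together from their group means (correlations 0.017, -0.027 and -0.012). With 3 libraries per group, these values cannot show whether same-numbered libraries shared a culture or batch. With the replicate block 24 of the genes passed (47.1%, background 49.1%), 11 higher and 13 lower.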

Other observations

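Of the 51 replication genes, 34 have another row of the tables that overlaps them. A same-strand row with at least 10% of the gene's own TPM overlaps FEN1, CHAF1B and PRIM1, where the row of NACA (mean 1020 TPM with the MEN1 shRNA and 803 TPM in the controls) shares 1191 bases. An opposite-strand row of that size overlaps 8 genes, among them RPA3 (UMAD1), ORC4 (MBD5), RFC4 (EIF4A2) and CHAF1A (UBXN6). The shared stretch is 18 bases for RFC4 and 20 bases for CHAF1A, but 594 bases for ORC4 and 77897 bases for RPA3. Mean TPM with the MEN1 shRNA against the controls was 38.5 against 27.9 for UMAD1 and 6.61 against 12.8 for MBD5. It was 368 against 286 for EIF4A2 and 314 against 235 for UBXN6. Since the use of strand in counting is not known, a part of such rows in the RPA3 and ORC4 values was not tested. The genes named here were chosen after their values were seen.

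Among the catalytic subunits of the 3 replicative polymerases, the order of the mean levels was the same in both groups, though not in every library. In the controls POLD1 was the most abundant at 109 ± 6.11 TPM, followed by POLE at 52.9 ± 2.66 and POLA1 at 41.0 ± 1.61. With the MEN1 shRNA POLD1 was at 63.6 ± 13.2 TPM and POLE at 63.3 ± 2.39, which do not differ beyond their spread, and POLA1 was at 29.4 ± 3.65. POLD1 was above POLE in MEN1 shRNA replicate 1 (78.8 against 61.8 TPM). It was below POLE in replicates 2 (54.9 against 62.1 TPM) and 3 (57.0 against 66.1 TPM).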
